A study of Saccharomyces cerevisiae with 44 samples.

Results

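The pericentromeric zone of Saccharomyces cerevisiae (budding yeast) examined here comprises all 50-bp bins more than 10 and at most 25 kb from any of the 16 centromeres, on both sides. It holds 9600 of the 241434 bins of the nuclear genome (3.98%), in 32 arms of 300 bins, each named by its centromere and side (CEN9 left is the lower-coordinate side of the centromere of chromosome IX). The bins were chosen by position alone. Replication was measured by quantitative BrdU immunoprecipitation and sequencing (QBU), in which DNA made after release from G1 arrest carries the thymidine analogue BrdU, is recovered with an antibody (IP) and is sequenced beside unselected DNA of the same culture (Total). Each of 9 mutant strains (ctf19∆, dbf4∆C, dbf4-Zn*1, dbf4-Zn*2, fkh1∆ and fkh1∆ fkh2-dsm, and the combinations fkh1∆ dbf4-Zn*1, fkh1∆ dbf4-Zn*2 and ctf19∆ fkh1∆ fkh2-dsm) and WT gave 2 IP and 2 Total libraries. All of these cultures were held in G1 with α-factor at 23 °C and harvested 60 min after release into BrdU and 200 mM hydroxyurea, which slows forks so that BrdU marks origins that fire early and the DNA around them. In dbf4-Zn*1 the zinc finger of Dbf4 carries C661A and C664A (positions counted along the protein), and in dbf4-Zn*2 it carries H680C, whereas dbf4∆C lacks the C-terminal part of the protein that holds the finger. The allele fkh2-dsm stands in for loss of Fkh2 at origins, ctf19∆ and fkh1∆ are deletions, and the triple mutant carries ctf19∆, fkh1∆ and fkh2-dsm together. Binding of 3xFLAG-Dbf4-Zn*1 and of 3xFLAG-Dbf4, both tagged at the N-terminus, was measured by ChIP-seq in G1-arrested cells with 2 libraries each. Each genotype is 1 strain of the W303 background, the cassette that allows BrdU uptake lies at different loci in different strains, the study's methods give a longer time in hydroxyurea for dbf4∆C than the labels, and the labels attach the numbers of the ChIP strains to the alleles the opposite way round from the study's legend. Nothing states whether replicates were separate cultures, so the tests measure only the spread between these libraries.

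An origin fires when Dbf4-dependent kinase, made of the catalytic subunit Cdc7 and the regulatory subunit Dbf4, phosphorylates the Mcm helicase loaded there in G1. Dbf4 is scarce, so origins compete for it, and those near centromeres are among the earliest because Ctf19, a protein of the inner kinetochore, brings Dbf4 to centromeres. The forkhead proteins Fkh1 and Fkh2 bring Dbf4 to another set of origins, many of them on chromosome arms. The zone lies outside the first 10 kb (the core) and at the outer part of the span in which kinetochores are known to advance replication.

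The IP libraries summed to between 281531 and 13959837 counts over all bins and the Total libraries to between 435781 and 33840380, where a read counts once in each bin it overlaps. The zone held 0.907 to 1.02 times the genome mean in the 20 Total libraries (median 0.937), so its mean DNA content differed little between strains. The highest means were those of fkh1∆ dbf4-Zn*1 and fkh1∆ dbf4-Zn*2 (1.01 each, against 0.935 in WT). Single 500-bp windows differed more. The window at the CEN2 right origin, chosen after its values were seen, had Total signals of 0.983 and 0.874 in dbf4∆C, 2.18 and 2.16 in fkh1∆ dbf4-Zn*1, and 1.62 and 1.59 in WT. Total coverage of FKH1 was at most 0.0543 times the mean in the 10 libraries of fkh1∆ strains and at least 0.719 in the other 10, and that of CTF19 was 0 in the 4 ctf19∆ libraries and at least 0.660 in the other 16, as the labels state. Signal is given as the mean count per bin of a region over the mean of all bins in the same library. Because an IP library has a fixed total, a signal is a share, and loss in one region appears as gain elsewhere.

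The zone was rich in BrdU in WT cells, lost the larger part of this excess without Ctf19 or the Dbf4 C-terminus, and gained without Fkh1/2. It averaged 1.56 ± 0.0237 in ctf19∆ cells and 1.20 ± 0.00861 in dbf4∆C cells, against 2.58 ± 0.0269 in WT cells (times the genome mean, SD, n = 2 each). The zinc-finger alleles lay between, at 2.17 and 2.15 in the replicates of dbf4-Zn*1 and 2.08 and 2.10 in those of dbf4-Zn*2, against 2.56 and 2.60 in WT. The signal was highest in fkh1∆ fkh2-dsm (3.32 and 3.58) and fkh1∆ (3.25 and 3.15), and neither overlapped WT. The triple mutant, at 1.56 and 1.55, overlapped ctf19∆ (1.57 and 1.54). The double mutant fkh1∆ dbf4-Zn*1 (2.55 and 2.59) overlapped WT, and fkh1∆ dbf4-Zn*2 (2.54 and 2.42) lay just below it. An exact permutation test of 2 libraries against 2 cannot give a two-sided p below 0.33, so the zone as a whole has values and no p. The mean rests on the bins around origins. The median bin of the zone stood at 0.628 in dbf4-Zn*1, 0.586 in ctf19∆, 0.800 in dbf4∆C and 1.63 in fkh1∆ fkh2-dsm, against 0.758 in WT, so that by the median bin dbf4∆C lay above WT and the gain without Fkh1/2 was larger than by the mean.

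**Figure D1:**
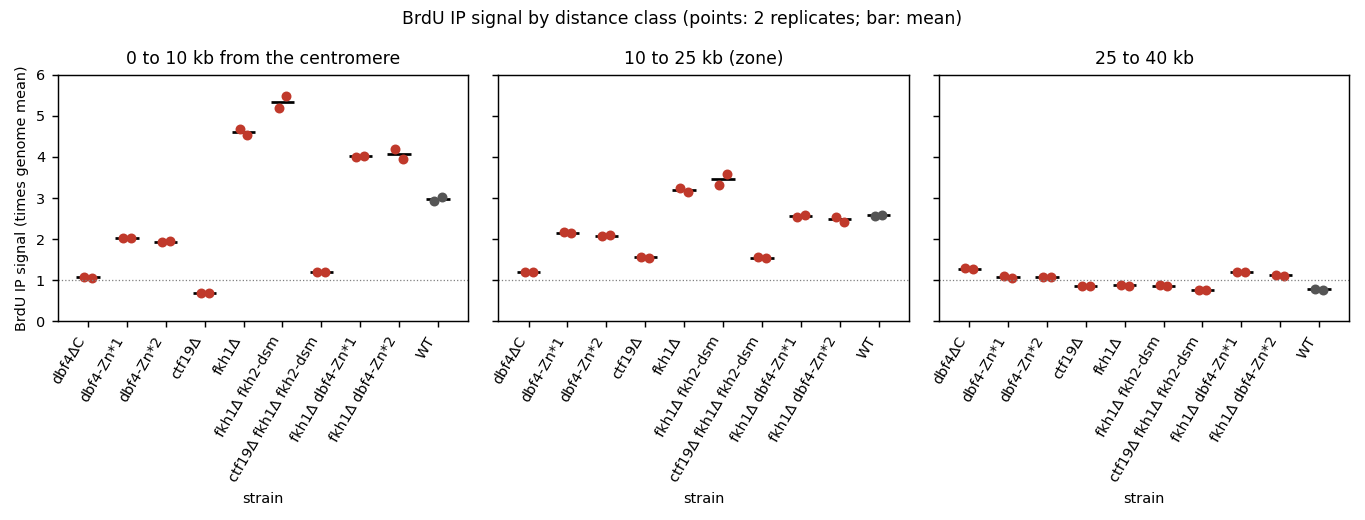
BrdU IP signal in times the genome mean (y axis) of the core, the zone and the next 15 kb outward, by strain (x axis); points are the 2 replicates, bars their mean and the dotted line the genome mean. In the zone, ctf19∆ and the triple mutant averaged 1.56 and 1.55, against 2.58 in WT, while the strains with the Fkh losses alone stood at 3.20 and 3.45.

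By the ratio of means, the zone lay closer to WT than the core did in all 9 mutants. The zone of ctf19∆ cells kept 0.604 times the WT signal and their core kept 0.234, so that the zone of ctf19∆ cells held 2.29 and 2.19 times the signal of the core in the 2 replicates, against 0.876 and 0.859 in WT. In dbf4∆C the zone kept 0.465 and the core 0.360 times the WT signal, and in dbf4-Zn*1 they kept 0.837 and 0.680. In fkh1∆ fkh2-dsm the zone reached 1.34 and the core 1.79 times WT. The fkh1∆ dbf4-Zn*1 and fkh1∆ dbf4-Zn*2 cells differed between the regions, with a zone at 0.997 and 0.963 times WT and a core at 1.35 and 1.37 times WT. From 25 to 40 kb, by contrast, dbf4∆C, dbf4-Zn*1 and ctf19∆ stood at 1.65, 1.39 and 1.12 times WT.

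In steps of 1 kb over all 32 arms, WT had maxima of 3.42 at 11 to 12 kb and 3.41 at 18 to 19 kb, with 2.29 between them at 15 to 16 kb, and then declined to 1.44 at 24 to 25 kb. In ctf19∆ the first maximum was missing. The ratio of ctf19∆ to WT was 0.349 at 10 to 11 kb, 0.613 at 18 to 19 kb and 0.900 at 24 to 25 kb. The dbf4-Zn*1 ratio was lowest at 11 to 12 kb (0.532) and passed 1 in the outer steps, reaching 1.28 at 23 to 24 kb. In dbf4∆C the profile was flat, between 1.06 and 1.30 in all 15 steps, with a ratio to WT of 0.316 at 12 to 13 kb and 0.873 at 23 to 24 kb. The gain of fkh1∆ fkh2-dsm was largest nearest the centromere (1.62 times WT at 10 to 11 kb) and smallest at 19 to 20 kb (1.01). The second maximum at 18 to 19 kb thus stood close to WT without Fkh1/2 and at 0.805 times WT in dbf4-Zn*1, where the first stood at 1.44 and 0.532.

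**Figure D2:**
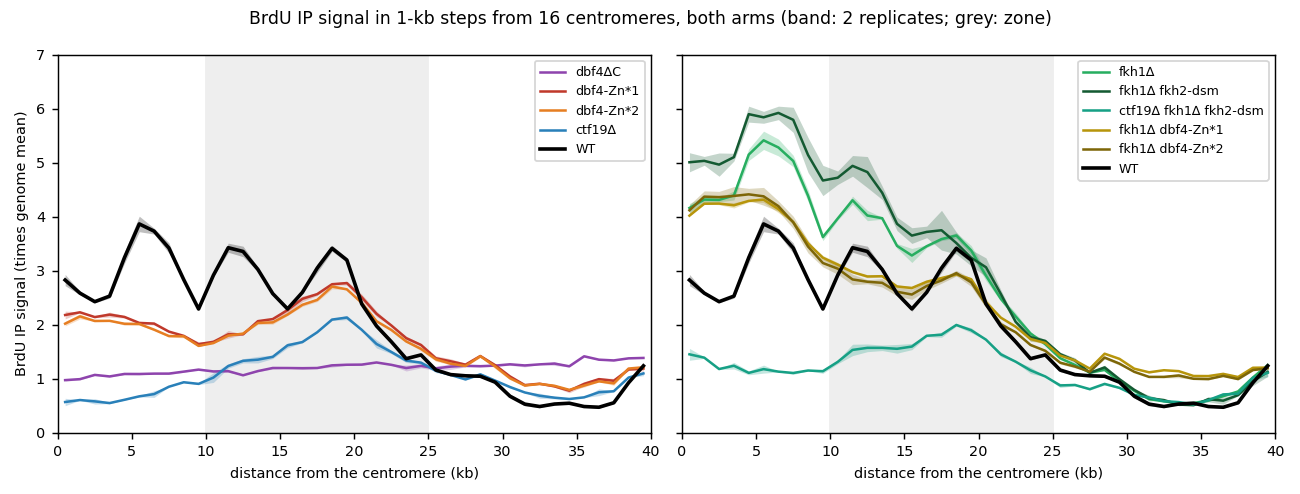
BrdU IP signal in times the genome mean (y axis) in 1-kb steps of distance from the centromere (x axis, kb), averaged over 16 centromeres and both sides, with single Dbf4 and Ctf19 mutants on the left panel, the Fkh mutants on the right panel and WT on both; bands span the 2 replicates and the grey area is the zone. WT shows 2 maxima inside the zone (3.42 and 3.41), of which ctf19∆ keeps mainly the outer one (2.13 at 19 to 20 kb).

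The excess in WT belonged to the arms that hold an origin. Origins were called as peaks of at least 2 times the genome mean in the average of all 20 IP profiles, and 22 of the 154 peaks in the genome fell in the zone, 1 in each of 22 arms, at 10.7 to 24.2 kb (median 16.7 kb). All 10 arms without a peak had 1 in the core on the same side, 5 arms had both, and 17 had a peak in the zone only, so each side of each centromere had its peak within 25 kb. Arms with an origin had WT signals of 0.736 to 6.05 (median 3.90, mean of 2 replicates) and arms without one 0.233 to 0.703 (median 0.499). These classes do not overlap in WT, but the peaks were called with the WT libraries included, so this is a description. Replicates of an arm differed by a median SD of 0.03 on the log2 scale in WT and of 0.03 to 0.12 in the other strains.

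The highest WT arms were CEN10 left, CEN2 right and CEN13 right, and the lowest CEN9 right, CEN13 left and CEN14 right. CEN10 left had 6.05 and 6.04, CEN2 right 5.78 and 6.00 and CEN13 right 4.90 and 5.02 times the genome mean in the WT replicates. CEN9 right had 0.234 and 0.231, CEN13 left 0.310 and 0.298 and CEN14 right 0.317 and 0.336. The 3 highest all hold an origin beyond 16 kb and no peak in the core, and the 3 lowest hold none in the zone. Taking the 5 highest arms of each strain, these held 61.9% and 61.6% of the zone's signal in the replicates of dbf4-Zn*1, 45.3% and 45.0% in ctf19∆ and 30.3% and 30.5% in fkh1∆ fkh2-dsm, against 32.0% and 31.9% in WT. The signal of dbf4-Zn*1 cells was thus spread over fewer arms.

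**Figure D3:**
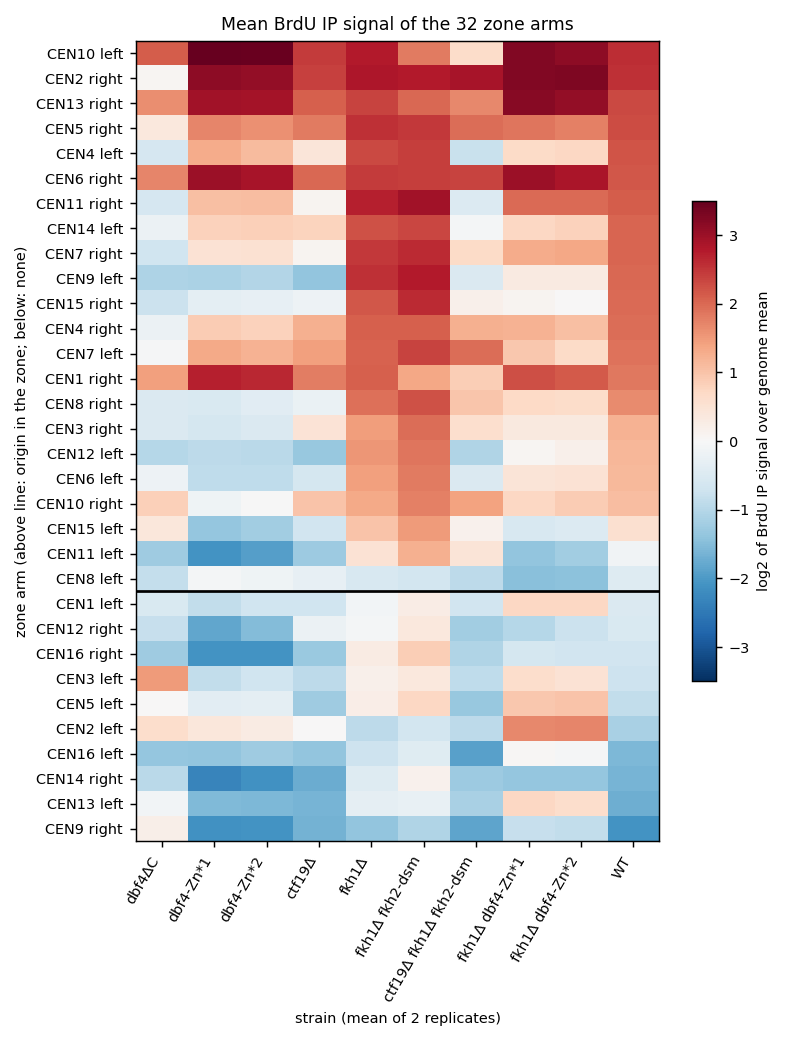
Mean BrdU IP signal of the 32 zone arms (rows, those with an origin in the zone above the line, ordered by WT) in 9 mutant strains and WT (columns, WT last), as log2 of the signal over the genome mean. In dbf4-Zn*1 and dbf4-Zn*2, CEN10 left, CEN2 right, CEN6 right, CEN13 right and CEN1 right stand above WT (11.7 against 6.05 in CEN10 left for dbf4-Zn*1), while most other arms stand below it.

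The 3 highest WT origins of the zone lay in CEN10 left, CEN2 right and CEN5 right. The first peak (chromosome X, window 416601 to 417100, 19.5 kb from the centromere) lies beside NOP9, a factor of small-subunit rRNA processing, and had 22.3 and 24.7 times the genome mean in WT. The second (chromosome II, 254101 to 254600, 16.1 kb) lies beside HHF1, which encodes histone H4, and had 20.4 and 22.8. The third (chromosome V, 173351 to 173850, 21.6 kb) lies beside TIR1, a cell wall mannoprotein gene, and had 19.2 and 19.3. Coordinates are those of the deposited bins, whose genome build is not given in the sources used here, and gene names come from the RefSeq table of assembly R64. Of the 22 peaks, 16 lay between annotated genes. In WT the 22 origins spanned 3.20 to 23.5 times the mean (median 16.4), and 17 reached 10 times. The median origin stood at 2.69 in ctf19∆, 0.974 in dbf4∆C, 3.22 and 3.16 with the zinc-finger alleles dbf4-Zn*1 and dbf4-Zn*2, 12.8 in fkh1∆, 12.5 in fkh1∆ fkh2-dsm and 4.07 in the triple mutant.

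Arms and origins were tested with edgeR's quasi-likelihood test on counts, with p-values adjusted by the Benjamini-Hochberg method over 811 blocks that tile the genome from each centromere (a zone arm is 1 block) or over the 154 origins, and called at an adjusted p under 0.05. Library size was the summed count of all bins. The median block then moved by 0.67 (log2) in dbf4∆C, 0.49 in ctf19∆, 0.47 in the triple mutant, 0.39 in fkh1∆ fkh2-dsm and 0.16 in fkh1∆ relative to WT, and by -0.30 and -0.16 with the 2 zinc-finger alleles. The trimmed mean (TMM) factors of edgeR brought the median block to between -0.05 and 0.06 in all 10 comparisons. Counts with TMM factors are given beside the others, because a direction can depend on this choice, and those of the origin test were computed over the origins alone. With the sum of the Total library of the same replicate as library size, edgeR called 0 arms in all 10 comparisons, with 5 of the 320 arm tests at an unadjusted p under 0.05. Under that scaling the ratio of IP to Total sums, which differed 1.02 to 9.22-fold between replicates, is part of the spread. Replicate 1 had the higher ratio in WT (0.604 and 0.0951), fkh1∆, dbf4∆C, dbf4-Zn*1, dbf4-Zn*2 and ctf19∆. Replicate 2 had the higher ratio in fkh1∆ fkh2-dsm (0.120 and 0.646), and the other strains differed least. A replicate term was not tested with this scaling, so its 0 calls do not show that the arms were alike. All 9 comparisons with WT share its 2 libraries.

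Without Ctf19, most arms with an origin fell. In ctf19∆ against WT, 22 of 32 arms were lower and 3 higher, beside 10.7% of all blocks lower and 69.4% higher, or 28 lower and 1 higher with TMM factors, beside 22.8% and 16.4% of all blocks. Of all 32 arms, 31 lay below the median block. The median log2 fold change was -0.40 over the zone arms, -1.80 over the core blocks and 0.53 over the blocks from 25 to 40 kb, against 0.49 over all blocks. The 22 arms with an origin had a median of -0.96, with 19 lower and 0 higher, and the 10 arms without one a median of 0.03, with 3 called in each direction. From 25 to 40 kb, 6 blocks were lower and 22 higher.

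The deepest falls in ctf19∆ were in CEN9 left, CEN12 left and CEN15 right. CEN9 left had 0.401 and 0.364 in ctf19∆ cells, against 3.95 and 4.05 in WT cells. Its log2 fold change was -3.36 ± 0.08 (SE, edgeR adjusted p = 3.1e-65). CEN12 left had 0.430 and 0.371 in ctf19∆ cells and 2.15 and 2.35 in WT, and CEN15 right had 0.957 and 0.826 in ctf19∆ cells and 3.82 and 4.02 in WT. Strains did not overlap at any of these arms, and the log2 fold changes were -2.46 ± 0.09 and -2.11 ± 0.08. At the other end, CEN2 left had 0.929 and 1.08 in ctf19∆ cells, against 0.450 and 0.454 in WT cells (log2 fold change 1.14 ± 0.09, edgeR adjusted p = 1.3e-21). CEN9 right (0.47 ± 0.14) and CEN12 right (0.32 ± 0.11) were also called higher, but under TMM factors they stood at 0.00 and -0.14 and were not called higher, and without the first ctf19∆ library only CEN2 left was. All 3 of these arms lack an origin.

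At the origins themselves, 20 of 22 were lower in ctf19∆ and 0 higher, beside 74.7% and 1.95% of all origins, or 13 lower and 0 higher with TMM factors, beside 20.8% and 12.3% of all origins. The zone origins had a median log2 fold change of -1.98 and all origins -0.77, and 19 of 22 lay below that. The origin of CEN9 left (chromosome IX, 341401 to 341900, 14.0 kb), between FAA3, a fatty acyl-CoA synthetase gene, and URM1, which encodes a ubiquitin-like modifier, had 0.398 and 0.148 in ctf19∆ cells, against 15.6 and 18.9 in WT cells. Its log2 fold change was -5.64 ± 0.29 (SE, edgeR adjusted p = 3.7e-17), and both ctf19∆ values lie below the genome mean. The next deepest were the origin of CEN12 left (chromosome XII, 139351 to 139850), inside SPO75 and next to ORC3, a subunit gene of the origin recognition complex, at -4.08 ± 0.28, and that of CEN6 left (chromosome VI, 135751 to 136250), inside the meiotic gene MSH4, at -3.58 ± 0.25. The smallest falls were at CEN10 right (chromosome X, 454901 to 455400, between TDH2 and MET3), with 2.92 and 2.46 in ctf19∆ cells against 3.31 and 3.08 in WT cells, CEN6 right (chromosome VI, 167151 to 167650) and CEN2 right. CEN10 right did not pass the test (-0.23 ± 0.24, edgeR adjusted p = 0.37), stood at 0.54 with TMM factors, not called, and was called higher with DESeq2 (0.71). CEN6 right had 9.25 and 8.90 in ctf19∆ cells against 14.1 and 15.4 in WT cells, and CEN2 right had 12.3 and 13.5 against 20.4 and 22.8. Their log2 fold changes of -0.69 ± 0.16 and -0.76 ± 0.12 turned to 0.09 and 0.02 with TMM factors. All 3 lie at 16 kb or farther.

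The fall in ctf19∆ was deeper at origins nearer the centromere. The 10 origins within 15 kb had a median log2 fold change of -2.73 and the 12 beyond it -1.02. Across the 22 origins, distance and log2 fold change correlated with a Pearson's r of 0.47 and a Spearman's rho of 0.56, a description over positions that share the same 4 libraries. The same r and rho were 0.52 and 0.60 for dbf4∆C, 0.29 and 0.38 for dbf4-Zn*1 and -0.16 and -0.25 for fkh1∆ fkh2-dsm. CEN9 left at 14.0 kb and CEN7 left at 12.5 kb, where the log2 fold change was -1.14 ± 0.16, show how far neighbours in distance differed (CEN7 left was chosen after its value was seen).

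**Figure D4:**
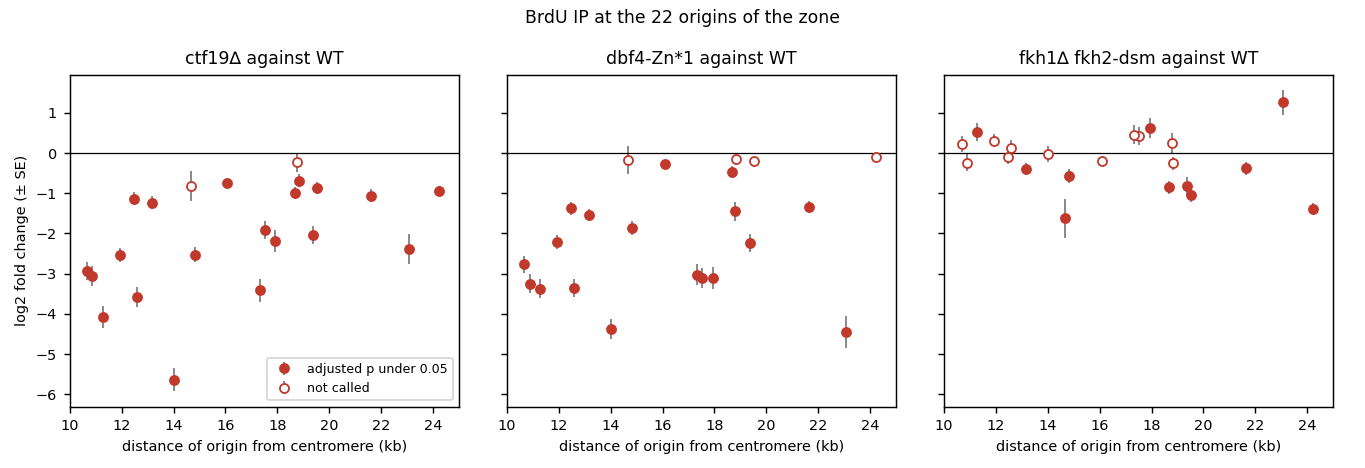
Log2 fold change of BrdU IP counts (y axis, ± SE) at the 22 zone origins against their distance from the centromere (x axis, kb) in ctf19∆, dbf4-Zn*1 and fkh1∆ fkh2-dsm against WT; filled points have an adjusted p under 0.05. The medians within and beyond 15 kb were -2.73 and -1.02 in ctf19∆ and -0.06 and -0.22 in fkh1∆ fkh2-dsm.

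The zinc-finger alleles split the zone. In dbf4-Zn*1 against WT, 20 of 32 arms were lower and 8 higher, beside 39.6% and 15.9% of all blocks, or 18 lower and 10 higher with TMM factors, beside 23.4% and 23.7% of all blocks. In dbf4-Zn*2, 19 were lower and 9 higher, beside 28.5% and 17.0% of all blocks, or 19 lower and 10 higher with TMM factors, beside 22.8% and 21.8% of all blocks. The median log2 fold changes were -0.80 and -0.83 over the zone and -0.30 and -0.16 over all blocks. Among the 22 arms with an origin, 16 were lower and 6 higher with each allele. The 2 alleles gave nearly the same arm levels, with a Pearson's r of 0.999 between their log2 means over the 32 arms. The difference between them was not tested.

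CEN9 left, CEN15 right and CEN8 right fell most in dbf4-Zn*1. CEN9 left had 0.443 and 0.485 in dbf4-Zn*1 cells, against 3.95 and 4.05 in WT cells (log2 fold change -3.11 ± 0.08, edgeR adjusted p = 3.1e-64). CEN15 right had 0.788 and 0.790 in dbf4-Zn*1 cells, against 3.82 and 4.02 in WT cells (-2.31 ± 0.07). CEN8 right had 0.648 and 0.743 in dbf4-Zn*1 cells, against 3.13 and 3.22 in WT cells (-2.20 ± 0.08). In all 3 the mutant fell below the genome mean. In contrast, CEN10 left rose to 11.7 and 11.8 in dbf4-Zn*1 cells, against 6.05 and 6.04 in WT cells (0.96 ± 0.06, edgeR adjusted p = 3.6e-30). CEN1 right had 6.67 and 6.57 in dbf4-Zn*1 cells against 3.58 and 3.56 in WT cells (0.89 ± 0.06), and CEN2 left 1.27 and 1.35 against 0.450 and 0.454 (1.54 ± 0.09). These gains held with TMM factors and DESeq2.

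The origin windows of CEN10 left and CEN1 right did not gain with their arms on the scale of the whole library, and CEN2 left lacks an origin. At the 22 origins, 18 were lower in dbf4-Zn*1 and 0 higher, beside 76.6% and 3.25% of all origins, or 15 lower and 6 higher with TMM factors, beside 41.6% and 28.6% of all origins. In dbf4-Zn*2, 19 were lower and 0 higher, beside 80.5% and 3.25% of all origins, or 15 lower and 5 higher with TMM factors, beside 41.6% and 27.9% of all origins. The 500-bp window at the CEN10 left origin had 19.3 and 21.4 in dbf4-Zn*1 cells, against 22.3 and 24.7 in WT cells (log2 fold change -0.20 ± 0.13, edgeR adjusted p = 0.16), while its whole 15-kb arm was higher. The same held at CEN1 right, with a window at -0.11 ± 0.13 and an arm at 0.89 ± 0.06. With the TMM factors of the origin test the same windows were higher, at 0.77 and 0.87. The median over the zone origins was -2.04 and over all origins -1.21.

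In dbf4∆C, the arms with an origin lost most of their signal. The median of those without one lay near that of all blocks. Of 32 arms, 23 were lower and 6 higher, beside 21.9% and 68.1% of all blocks, or 26 lower and 5 higher with TMM factors, beside 34.6% and 36.7% of all blocks. The 22 arms with an origin had a median of -1.91, with 21 lower and 0 higher. The 10 without had a median of 0.79, with 2 lower and 6 higher, beside a median of 0.67 over all blocks. All 22 origins were lower, beside 95.5% of all origins lower and 1.95% higher, or 14 lower and 4 higher with TMM factors, beside 39.6% and 22.7% of all origins. Their median was -3.60 and that of all origins -2.71. Arm levels in dbf4∆C tracked those in WT only loosely (Pearson's r of 0.27 over 32 arms, against 0.75 for ctf19∆ and 0.98 for fkh1∆). CEN2 right, the second highest arm in WT, had 1.11 and 0.999 in dbf4∆C cells, against 5.78 and 6.00 in WT cells, whereas CEN10 left kept 4.33 and 4.30, against 6.05 and 6.04 in WT cells. CEN3 left, chosen after its values were seen, had 2.89 and 2.71 in dbf4∆C cells, against 0.603 and 0.615 in WT cells. Its dbf4∆C signal was highest at 20 to 21 kb (3.97 and 3.93), where WT had 0.294 and 0.348.

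Loss of Fkh1, or of Fkh1/2, raised the zone, and on the log2 scale most in arms without an origin. In fkh1∆ against WT, 0 arms were lower and 28 higher, beside 14.4% and 27.6% of all blocks, or 0 lower and 13 higher with TMM factors, beside 16.3% and 20.1% of all blocks. At an unadjusted p under 0.05, 0 arms were lower on this scale and 1 with TMM factors or DESeq2. In fkh1∆ fkh2-dsm, 3 were lower and 27 higher, beside 16.3% and 51.8% of all blocks, or 4 lower and 18 higher with TMM factors, beside 24.3% and 28.6% of all blocks. The median log2 fold changes over the zone were 0.29 and 0.68, over the core 0.77 and 0.93 and over all blocks 0.16 and 0.39. In fkh1∆ fkh2-dsm the arms without an origin had a median of 1.12, with all 10 higher, and the arms with one 0.50. In fkh1∆ these medians were 0.87 and 0.27. Arms without an origin started from a low level. As signal, their median was 0.866 in fkh1∆ and 1.16 in fkh1∆ fkh2-dsm, against 0.499 in WT. That of the arms with an origin was 4.37 and 4.47, against 3.90 in WT. All 10 arms without an origin in the zone had a peak in the core on the same side, against 5 of the 22 others. Whether this difference bears on the gain was not tested.

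CEN14 right, CEN5 left and CEN16 right gained most in fkh1∆ fkh2-dsm, and CEN10 left, CEN1 right and CEN13 right lost most. CEN14 right had 0.967 and 1.27 in fkh1∆ fkh2-dsm cells, against 0.317 and 0.336 in WT cells (log2 fold change 1.77 ± 0.14, edgeR adjusted p = 3.8e-21). CEN5 left had 1.56 and 1.76 in fkh1∆ fkh2-dsm cells against 0.522 and 0.572 in WT cells, and CEN16 right 1.82 and 1.80 against 0.631 and 0.636. All 3 lack an origin in the zone. CEN10 left had 3.39 and 3.64 in fkh1∆ fkh2-dsm cells, against 6.05 and 6.04 in WT cells (-0.79 ± 0.06, edgeR adjusted p = 2.8e-22). CEN1 right had 2.61 and 2.50 in fkh1∆ fkh2-dsm cells against 3.58 and 3.56 in WT cells (-0.48 ± 0.06), and CEN13 right 3.81 and 4.30 against 4.90 and 5.02 (-0.29 ± 0.06). All 3 hold an origin at 18 kb or farther.

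At the origin windows the direction of the Fkh effect turned with the scaling. In fkh1∆, 6 of 22 zone origins were lower and 0 higher, beside 63.0% and 5.19% of all origins, or 0 lower and 16 higher with TMM factors, beside 21.4% and 35.1% of all origins. In fkh1∆ fkh2-dsm, 8 were lower and 3 higher, beside 62.3% and 11.7% of all origins, or 1 lower and 17 higher with TMM factors, beside 36.4% and 40.3% of all origins. Their position relative to other origins did not turn, with medians of -0.20 and -0.15 against -0.58 and -0.93 over all origins, and 21 and 19 of the 22 above the median of all origins. The fkh1∆ count of 6 fell to 1 without the first fkh1∆ library, to 2 without the second and to 2 without the second WT library. Without that WT library the 8 of fkh1∆ fkh2-dsm became 5, and the 3 higher became 1 without the first WT or the second fkh1∆ fkh2-dsm library. The largest fall in fkh1∆ fkh2-dsm was at CEN8 left (chromosome VIII, 90651 to 91150, 14.7 kb), inside YHL009W-B, an open reading frame of a Ty retrotransposon. It had 1.80 and 0.00 in fkh1∆ fkh2-dsm cells, against 2.78 and 3.95 in WT cells (log2 fold change -1.62 ± 0.48, edgeR adjusted p = 0.0038), with TMM factors -0.59 and not called. Reads of a repeated element can come from other copies, so this value is uncertain.

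In cells that also lacked Ctf19, the loss of Fkh1/2 raised fewer arms. The triple mutant against WT had 21 arms lower and 7 higher, beside 17.3% and 63.7% of all blocks, or 25 lower and 0 higher with TMM factors, beside 29.0% and 29.7% of all blocks. Of its 32 arms, 30 lay below the median block. Of the 22 origins, 19 were lower and 1 higher, beside 74.0% and 11.0% of all origins, or 13 lower and 4 higher with TMM factors, beside 45.5% and 31.2% of all origins. The 1 higher, CEN10 right, was not called without either WT library or the second library of the triple mutant. Against ctf19∆, 10 arms were lower and 14 higher, beside 23.1% and 31.4% of all blocks, and 6 origins were lower and 9 higher, beside 40.3% and 27.9% of all origins. TMM factors gave 10 arms lower and 12 higher, beside 224 and 250 of the 811 blocks. They gave 6 origins lower and 11 higher, beside 53 and 54 of the 154 origins. CEN10 left had 1.60 and 1.52 in the triple mutant, against 5.44 and 5.47 in ctf19∆ cells (log2 fold change -1.80 ± 0.06). CEN2 right had 7.25 and 7.46 in the triple mutant, against 5.31 and 5.22 in ctf19∆ cells (0.48 ± 0.06), and so became the highest arm. CEN9 left stayed at 0.721 and 0.682 in the triple mutant, against 0.401 and 0.364 in ctf19∆ cells.

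The change on loss of Fkh1/2 in ctf19∆ cells was tested against that in cells with Ctf19, as an interaction term in the same edgeR fit chosen after the data were seen. The difference was below 0 in 21 of 32 arms and above 0 in 3 at an adjusted p under 0.05, beside 27.9% and 12.5% of all blocks, or 13 and 4 with TMM factors, beside 8.51% and 22.7% of all blocks. Its median was -0.50 over the zone and -0.27 over all blocks. The arms at the ends of the range were CEN12 right and CEN8 right. In CEN12 right the log2 fold change was -1.01 in ctf19∆ cells and 0.89 in cells with Ctf19 (difference -1.90 ± 0.16, edgeR adjusted p = 1.5e-18). In CEN8 right it was 1.21 in ctf19∆ cells and 0.55 in cells with Ctf19 (difference 0.66 ± 0.11, edgeR adjusted p = 2.0e-07). Both arms gained when Ctf19 was present, and without it CEN12 right fell while CEN8 right gained.

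**Figure D5:**
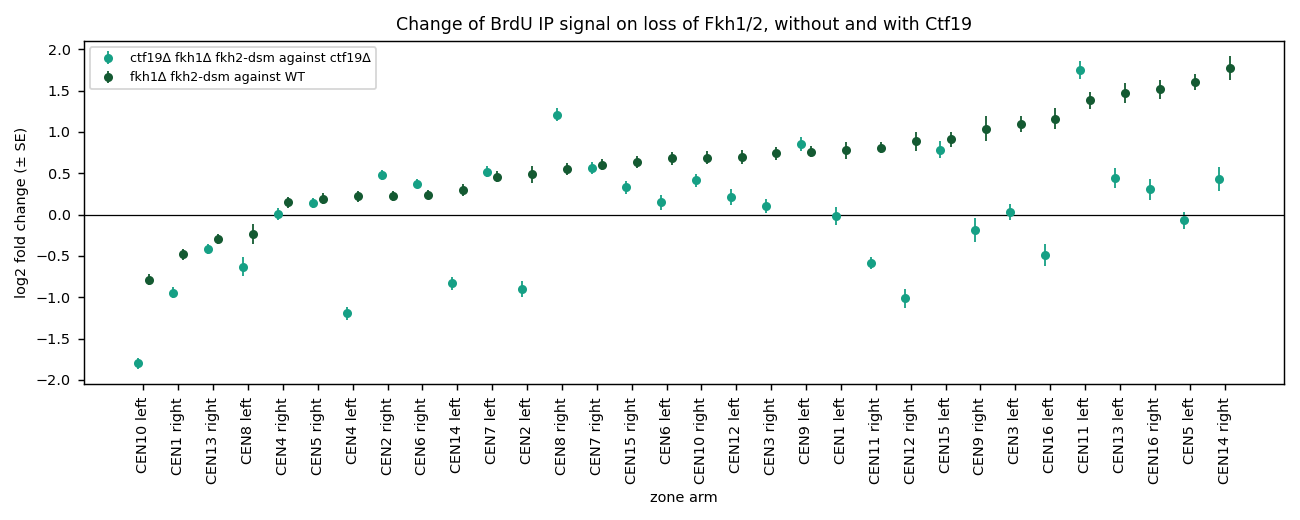
Log2 fold change of the 32 zone arms (y axis, ± SE) on loss of Fkh1/2 in cells without Ctf19 (triple mutant against ctf19∆) and in cells with it (fkh1∆ fkh2-dsm against WT), arms ordered along the x axis by the second comparison. With Ctf19, 27 arms were called higher, beside 51.8% of all blocks, and without it 14, beside 31.4%. With TMM factors these counts were 18 and 12.

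In the double mutants of FKH1 and the zinc finger, the median arm with an origin lay below WT and the median arm without one above it. In fkh1∆ dbf4-Zn*1, 17 arms were lower and 12 higher, beside 27.6% of all blocks lower and 21.7% higher, and in fkh1∆ dbf4-Zn*2, 16 were lower and 12 higher, beside 23.7% and 23.4%. The arms with an origin had medians of -0.81 and -0.89, and those without one 1.31 and 1.23. TMM factors gave 16 arms lower and 13 higher in fkh1∆ dbf4-Zn*1, beside 200 and 201 of the 811 blocks. In fkh1∆ dbf4-Zn*2 they gave 15 and 12, beside 199 and 200. CEN2 left, which lacks an origin, had 3.13 and 3.25 in fkh1∆ dbf4-Zn*1 cells and 3.35 and 3.15 in fkh1∆ dbf4-Zn*2 cells, against 0.450 and 0.454 in WT cells. The near-WT mean of the whole zone in these strains therefore combined arms below WT with arms above it. The difference from the dbf4-Zn* single mutants was not tested. At the origins, 20 of 22 were lower and 0 higher in each double mutant. Over all origins, 83.8% were lower and 5.19% higher in fkh1∆ dbf4-Zn*1, and 82.5% and 7.14% in fkh1∆ dbf4-Zn*2. With TMM factors there were 12 lower and 6 higher in fkh1∆ dbf4-Zn*1, beside 42.9% and 29.9% of all origins, and 9 lower and 6 higher in fkh1∆ dbf4-Zn*2, beside 39.0% and 33.1% of all origins. The zone medians of -1.71 and -1.55 lay near those of all origins, -1.55 and -1.48.

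In G1 cells, the mean Dbf4 ChIP signal of the zone lay below the mean outside the rDNA with either allele, while single arms stood above the median block. The rDNA repeat took 55.1% and 60.7% of read ends in the 3xFLAG-Dbf4-Zn*1 libraries and 50.4% and 66.8% in the 3xFLAG-Dbf4 libraries, so signal is given over the mean outside the rDNA. The zone had 0.870 and 0.896 with 3xFLAG-Dbf4-Zn*1, against 0.910 and 0.807 with 3xFLAG-Dbf4, whereas the first kb around centromeres had 1.26 and 1.25 with 3xFLAG-Dbf4-Zn*1, against 2.10 and 1.76 with 3xFLAG-Dbf4. Within the zone, 1-kb steps ranged from 0.793 to 1.01 in the 3xFLAG-Dbf4-Zn*1 libraries and from 0.739 to 0.997 in the 3xFLAG-Dbf4 libraries, which overlap. Of single arms, picked after their values were seen, CEN12 right had 1.37 and 1.53 times the median block with 3xFLAG-Dbf4-Zn*1, against 1.46 and 1.31 with 3xFLAG-Dbf4, and CEN1 right had 1.33 and 1.41 with 3xFLAG-Dbf4-Zn*1, against 1.35 and 1.34 with 3xFLAG-Dbf4. By their medians, the 22 origin windows were not enriched over their own arms, with medians of 0.938 and 0.864 times the arm with 3xFLAG-Dbf4-Zn*1 and 0.853 and 0.759 with 3xFLAG-Dbf4, and 8 windows exceeded their arm in each 3xFLAG-Dbf4-Zn*1 library against 3 in each 3xFLAG-Dbf4 library. No input library was used here, so these levels are not corrected for local differences in recovery.

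With edgeR, 0 of 32 zone arms differed between the alleles, with 0 at an unadjusted p under 0.05 and 0.00% of all blocks called. TMM factors and DESeq2 also called 0 arms, each with 1 higher at an unadjusted p under 0.05. Of all 811 blocks, TMM factors called 2 lower and 0 higher, and DESeq2 called 0. The log2 fold changes ran from -0.07 ± 0.45 (SE) at CEN7 right to 0.18 ± 0.46 at CEN5 right. CEN5 right had 0.926 and 0.950 times the median block with 3xFLAG-Dbf4-Zn*1, against 0.870 and 0.805 with 3xFLAG-Dbf4, and CEN7 right had 0.855 and 0.898 against 0.962 and 0.902. With standard errors this large, a difference in the zone could go undetected. Library size here was the count of all read ends, the rDNA included. The same edgeR test also called 0 of the 32 core blocks, so its 0 calls do not show that the zone was alike between the alleles.

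Total coverage of a pair of auxotrophic marker genes in the zone differed between strains. LEU2, 22.5 kb to the left of CEN3, had a Total signal of 1.48 to 1.72 in the strains dbf4-Zn*1, dbf4-Zn*2, fkh1∆ dbf4-Zn*1, fkh1∆ dbf4-Zn*2 and WT, 1.15 and 1.29 in dbf4∆C, and 0.735 to 0.923 in the others. TRP1, 12.4 kb to the right of CEN4, had 2.25 and 1.79 in ctf19∆ and 1.68 and 1.88 in the triple mutant, against 0.682 to 1.29 in the other strains. The origin window beside TRP1 had a Total signal of 1.00 and 1.19 in ctf19∆ cells, against 1.32 and 1.49 in WT cells. Its log2 fold change in ctf19∆ against WT was -1.23 ± 0.16. Without the bins of LEU2 and TRP1, chosen after the data were seen, no count of arms called moved by more than 1 in the 10 comparisons, and that of ctf19∆ became 21 lower and 3 higher. The part of these coverage differences in the values of CEN3 left and CEN4 right was not tested further.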

How the data were processed

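The submitters' processing notes name Bowtie2, SAMtools and bedtools, with no versions or options. The deposited BrdU files hold raw counts per 50-bp bin, made by the authors, 1 file for each of 40 libraries, and a read counts in each bin it overlaps. The deposited ChIP files list single read alignments with their mapping quality score, and read ends were counted per bin for each of 4 libraries without a quality limit. The genome build is not given in the sources used here. Bins were summed into 811 blocks (the 10-kb core on each side, then 15-kb blocks outward) and into 500-bp windows at 154 peaks. Peaks were called on the mean of 20 scaled IP profiles after a running median over 21 bins, added after seeing the data, at 2 times the mean and 5 kb apart. Counts were tested with edgeR 4.0.16 (quasi-likelihood, all 20 IP libraries in 1 fit, strain as the only term, library size as the sum of all bins, at least 10 counts in at least 2 libraries), and DESeq2 1.42.0 and limma 3.58.1 (pseudocount 0.1) were alternatives, as were TMM factors, other library sizes, a replicate block and leaving out each replicate. Scripts were tested on simulated data. The members, the lists and the interaction were chosen with earlier results of these data known. Arms and origins named are the 3 with the highest and lowest WT signal, the 3 at either end of the ctf19∆, dbf4-Zn*1 and fkh1∆ fkh2-dsm comparisons, and the ends of the ChIP comparison. IP depth (281531 to 13959837 counts) sets the precision. Standard errors of the BrdU tests cover the spread between replicates as estimated in 1 fit of all 20 IP libraries, not that of a single strain.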

Additional observations from a re-analysis of the deposited data

Results flagged for a closer look

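The change on loss of Fkh1/2 differed with the state of CTF19 in most zone arms by the interaction term in the edgeR fit. It was lower in ctf19∆ cells than in cells with Ctf19 in 21 of 32 arms and higher in 3 (adjusted p under 0.05), where 27.9% and 12.5% of all blocks were so called. With TMM factors the counts were 13 and 4, beside 8.51% and 22.7%. The comparison was added after the data were seen, and no group had enough libraries for a search for single libraries that stand apart.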

How the results depend on the processing

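Scaled by Total libraries, all 20 counts of zone arms were 0. The DESeq2 and TMM counts of arms differed by over 1.5 times only among arms called higher, which became 1 in ctf19∆, 13 in fkh1∆ and 0 in the triple mutant with both tools, and among arms with a negative interaction, which became 13 with TMM factors. At the origins, TMM factors gave 13 lower and 0 higher in ctf19∆, 14 lower and 4 higher in dbf4∆C, 15 lower and 6 higher in dbf4-Zn*1, 15 lower and 5 higher in dbf4-Zn*2, 0 lower and 16 higher in fkh1∆, 1 lower and 17 higher in fkh1∆ fkh2-dsm, 13 lower and 4 higher in ctf19∆ fkh1∆ fkh2-dsm, 12 lower and 6 higher in fkh1∆ dbf4-Zn*1 and 9 lower and 6 higher in fkh1∆ dbf4-Zn*2. DESeq2 gave 12 lower and 1 higher in ctf19∆, 13 lower and 6 higher in dbf4∆C, 13 lower and 6 higher in dbf4-Zn*1, 13 lower and 6 higher in dbf4-Zn*2, 0 lower and 20 higher in fkh1∆, 0 lower and 17 higher in fkh1∆ fkh2-dsm, 10 lower and 7 higher in ctf19∆ fkh1∆ fkh2-dsm, 9 lower and 6 higher in fkh1∆ dbf4-Zn*1 and 9 lower and 6 higher in fkh1∆ dbf4-Zn*2. Of all 154 origins, DESeq2 called 29 lower and 42 higher in ctf19∆, 54 and 56 in dbf4∆C and 50 and 57 in dbf4-Zn*1. The numbers were 49 and 59 in dbf4-Zn*2, 27 and 68 in fkh1∆ and 50 and 67 in fkh1∆ fkh2-dsm. They were 55 and 66 in ctf19∆ fkh1∆ fkh2-dsm, 54 and 56 in fkh1∆ dbf4-Zn*1 and 55 and 57 in fkh1∆ dbf4-Zn*2. With peaks of at least 4 times the mean, origins called higher numbered 1 in fkh1∆ fkh2-dsm and 0 in the triple mutant against WT, and 5 in the triple mutant against ctf19∆. These counts rest on fewer origins. The peaks of CEN8 left, CEN11 left, CEN15 left and CEN10 right had heights of 2.15, 2.34, 2.62 and 3.22, below that limit. The lower counts therefore do not show weaker effects. Leaving out 1 library at a time gave 1 to 3 arms higher in ctf19∆, 1 to 5 origins lower in fkh1∆, 5 to 7 lower and 1 to 4 higher in fkh1∆ fkh2-dsm and 0 to 1 higher in the triple mutant, and the other counts stayed within 1.5 times. Fold changes changed sign with DESeq2 in ctf19∆ at CEN12 right (-0.17), CEN9 right (-0.028) and the origins of CEN2 right (0.18), CEN6 right (0.25) and CEN10 right (0.71), and with TMM factors at CEN12 right (-0.14) and the origins of CEN2 right (0.022) and CEN6 right (0.089), and of CEN10 right (0.54, not called in either direction). The cause was not tested. In the order ctf19∆, dbf4∆C, dbf4-Zn*1, dbf4-Zn*2, fkh1∆, fkh1∆ fkh2-dsm, the triple mutant, fkh1∆ dbf4-Zn*1, fkh1∆ dbf4-Zn*2 and WT, the zone signal was 0.586, 0.800, 0.628, 0.654, 1.38, 1.63, 0.721, 1.31, 1.28 and 0.758 as the median over bins, 1.12, 0.609, 1.90, 1.79, 2.85, 3.20, 1.14, 2.25, 2.14 and 2.33 with the median bin subtracted, and 1.62, 1.21, 2.22, 2.14, 3.06, 3.24, 1.57, 2.50, 2.41 and 2.49 from 12 to 25 kb. By 45 correlations of deviations between strains (-0.28 to 0.39, median 0.03, and -0.02 for ChIP), replicate numbers did not pair the samples. The ratio of IP to Total sums did differ by replicate number. It was higher in replicate 1 of WT (0.604 and 0.0951), fkh1∆, dbf4∆C, dbf4-Zn*1, dbf4-Zn*2 and ctf19∆. In fkh1∆ fkh2-dsm it was higher in replicate 2 (0.120 and 0.646). With the summed count of all bins as library size, a replicate block changed no count (ctf19∆ arms stayed at 22 lower and 3 higher).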
